A study of Mus musculus with 12 samples.

Results

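Described here are 44 mouse genes of the NRF2 pathway, glutathione metabolism and the antioxidant enzymes. They were chosen by name and measured by RNA-seq in MC38 tumors and in macrophages. Earlier results of these data were known when they were chosen, so shares of called genes among them are no independent test. By role they are 4 regulators, 8 genes of glutathione supply and use, 3 of the thioredoxin system, 6 peroxiredoxins, 7 peroxidases, catalase and dismutases, 9 glutathione transferases and 7 detoxification genes. All 44 have a row among the 22274 of the tumor table, matched by gene identifier. By symbol, 42 have a row among the 19496 named rows of the macrophage table, and Sod3 and Gstm5 were not analysed there.

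NRF2, encoded by Nfe2l2, is a transcription factor that KEAP1 holds in the cytoplasm and hands to the proteasome. When oxidants or electrophiles modify KEAP1, NRF2 builds up, pairs with a small MAF protein at antioxidant response elements and switches on genes that make glutathione, reduce peroxides and conjugate reactive compounds, while BACH1 competes for the same elements. In tumor cells the pathway is known for protecting against oxidative stress, and in macrophages for restraining the inflammatory response and coping with the oxidants these cells make themselves.

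Per the labels, the tumor libraries hold RNA of tumors grown from MC38 cells, a mouse colon adenocarcinoma line, injected under the skin of C57BL/6 mice. The cells carried either a control hairpin (shCtrl, called shNC in the protocol) or a short hairpin against Chrebp (shChrebp), and each group has 3 libraries. Chrebp, gene symbol Mlxipl, is a glucose-responsive transcription factor. The other libraries came from bone-marrow-derived macrophages (BMDM), which per the study's design text first received LPS and IFN-γ for 4 h. These cells were then kept for 24 h with 200 µM choline in 3 libraries, and 3 control libraries had PBS in place of choline.

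Tumor libraries held 15844794 to 24181897 estimated counts, and BMDM libraries 34961195 to 35393902 reads as recovered from the deposited values. Tumor values are given as CPM, counts scaled to library size by TMM, and BMDM values as the deposited FPKM, reads scaled to gene length and library size. Mlxipl had 5 counts summed over shCtrl and 4 over shChrebp, so its level does not check the hairpin labels. In the libraries labelled tumor, markers of T and NK cells summed to at most 0.172 FPKM, those of adipocytes to at most 0.241 and of endothelium to at most 1.27, and 9 of 12 macrophage markers were under 1 FPKM. Most markers of these host cells were thus near 0 and do not by themselves set tumor tissue apart from cultured MC38 cells. Erythroid markers were higher, summing to 45.96 to 63.32 FPKM in shCtrl and 49.25 to 59.51 in shChrebp. Of these, Hbb-bs was at 23.4 and 27.0 FPKM, while 4 of 8 were under 1 FPKM. Neutrophil markers summed to 6.27 to 11.8 and 6.99 to 11.2 FPKM, with 6 of 8 under 1 FPKM. The source of this RNA was not tested, and the word tumor below is the labels' own. Epithelial markers summed to 31.0 FPKM in shCtrl 1 and to 5.76 and 3.72 in the other shCtrl libraries, beside 4.55 to 4.78 in the shChrebp libraries. BMDM libraries carried the macrophage markers Adgre1 at 62.5 FPKM, Csf1r at 203 and Lyz2 at 2587 under PBS, while Mertk and Mrc1 were at or under 0.0107. Whether the 3 libraries of a group stem from separate mice or cultures is not stated in the labels, and p-values cover only the spread between libraries, which may be technical. In bulk RNA, fewer cells of a type and less RNA per cell cannot be told apart.

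Antioxidant response elements share the core TGACNNNGC. It was searched on both strands in RefSeq promoter windows of build GRCm38.p6, which run from 250 bases before to 50 bases after a gene's start. Of the 44 genes 38 had a window, and 12 of these (31.6%) held the core, against 14.0% of 27025 genes. Among genes with 1 window only, 10 of 33 (30.3%) held it, against 12.3% of 22862. The stretches below belong to the 6 of these 12 genes with the greatest called fold changes in either comparison, shown to let the core be read in genes that were called. Gstt1 and Nqo1, whose tumor changes were larger than those of these 6, have a window without the core. Gsta4 and Sod3, whose tumor changes were also larger, have no window. Bases outside the windows were not searched, so a window without the core does not show that a gene lacks the element. Capitals mark the core or its reverse complement, and each sequence is written 5′ to 3′ along the gene.
Gclm: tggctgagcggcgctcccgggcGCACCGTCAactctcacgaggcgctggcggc
Nfe2l2: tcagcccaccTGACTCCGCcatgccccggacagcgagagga
Mgst1: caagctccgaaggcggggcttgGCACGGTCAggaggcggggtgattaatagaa
Prdx1: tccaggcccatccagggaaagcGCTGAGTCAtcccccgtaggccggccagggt
Srxn1: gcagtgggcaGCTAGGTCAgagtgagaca
Ggct, after the start: tctctgtgctTGACGCTGCtggcgtggat
Ggct, before the start: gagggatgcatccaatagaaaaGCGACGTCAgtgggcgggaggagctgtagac

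The Gclm stretch is at chr3:122245401-122245453 on the plus strand, with the middle of the match 130 bases before the start. On the minus strand, that of Nfe2l2 is at chr2:75704873-75704913, 236 bases before the start. Those of Mgst1 (chr6:138140449-138140501) and Prdx1 (chr4:116685444-116685496) lie on the plus strand, 52 and 129 bases before their starts. The Srxn1 match, at chr2:152105542-152105570 on the plus strand, falls 32 bases after the start. Ggct, on the minus strand, has matches 9 bases after the start (chr6:54992844-54992872) and 170 bases before it (chr6:54993011-54993063). These letters are matches to a short pattern and were not measured as binding sites.

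In shChrebp tumors most of the system was lower than in shCtrl tumors. Of 42 genes tested, 25 fell (59.5%) and 2 rose (4.76%) by edgeR's quasi-likelihood test at an adjusted p under 0.05, while 19.7% of all 11780 genes tested were called lower and 18.6% higher. The median log2 fold change of the 42 was −0.19, beside 0.00 over all genes, and 34 of the 42 were below 0. Nfe2l2 itself fell, and so did the quinone reductase gene Nqo1, the extracellular dismutase gene Sod3, Prdx6 and 6 of 8 tested glutathione transferases. The 2 genes that rose were Chac2 and Ugdh. In Gpx1, Mgst3 and Osgin1, which were not called, the values of the groups did not overlap. The share of all genes without overlap between groups was not counted, here or in BMDM. Gsta3 (at most 3 counts in a library) and Cbr1 (30 counts in shCtrl 1 and 7 to 9 in the other 5 libraries) were under the filter on low counts. Without shCtrl 1, the library with more epithelial marker RNA, 20 of the 42 were lower and 4 higher.

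**Figure D1:**
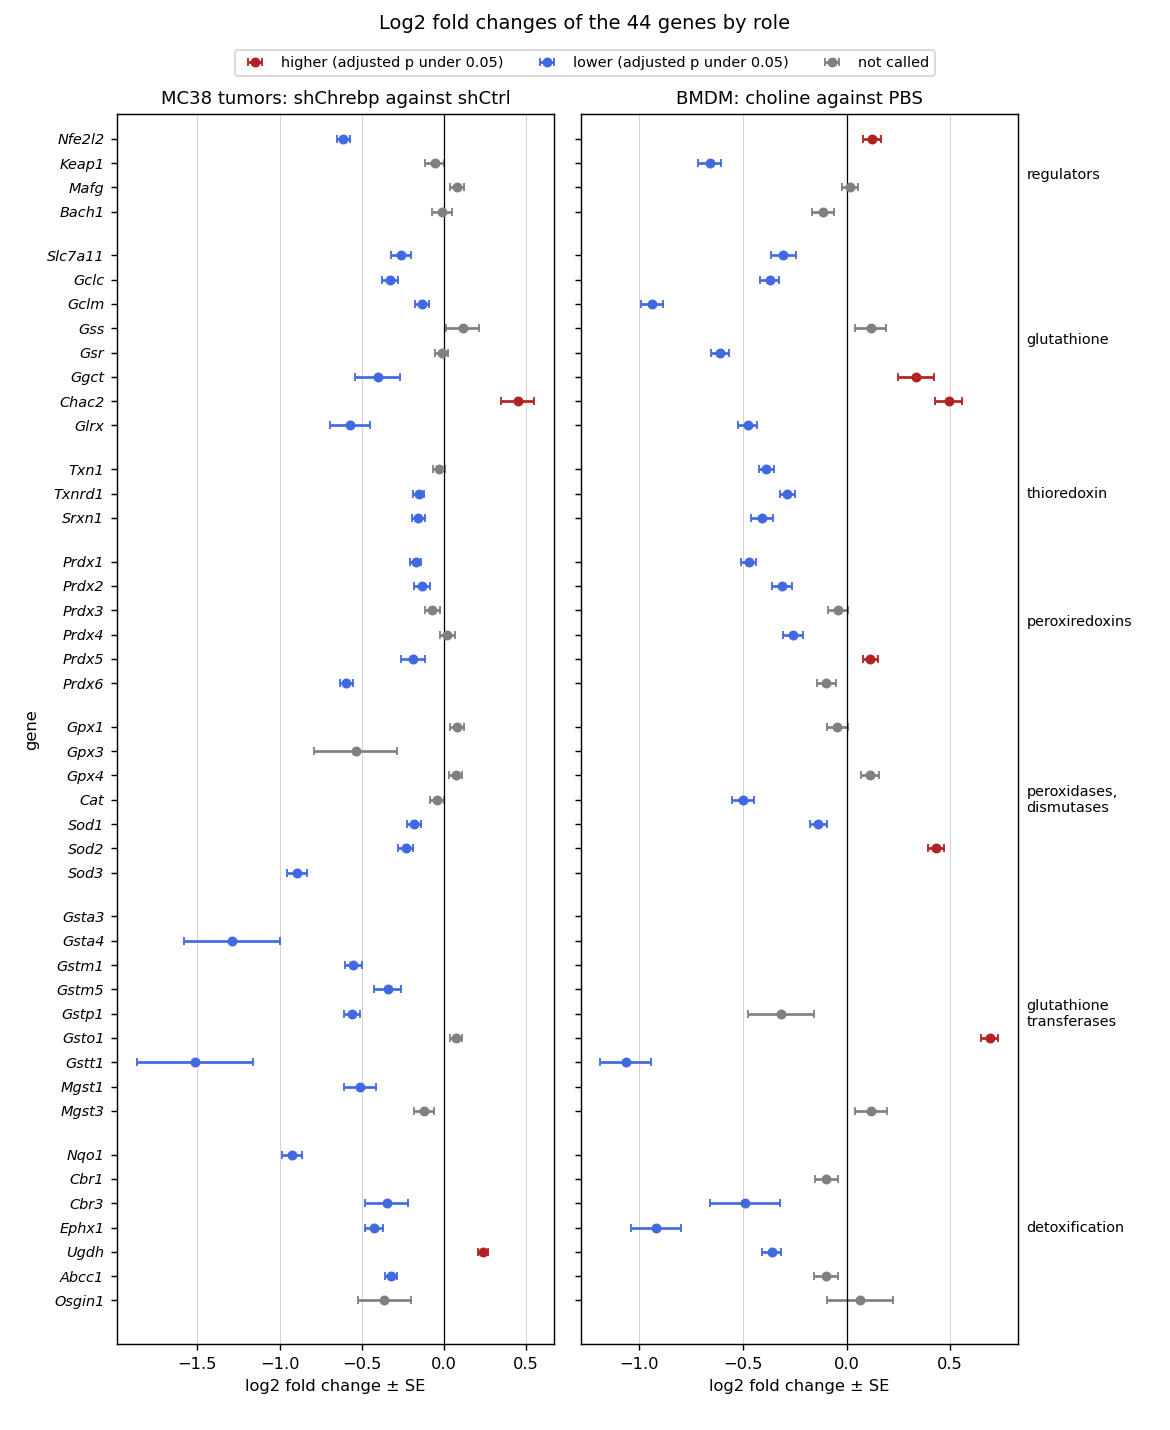
Log2 fold change with its standard error (x axis) for each gene (y axis), grouped by role, in tumors (left) and BMDM (right). Points are coloured by call, and genes without a point were not tested. In tumors 25 points were called lower and 2 higher, and in BMDM 18 were called lower and 6 higher.

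Other cell markers also moved with the hairpin. Summed macrophage markers were at 35.6 to 38.2 FPKM in shCtrl and 25.3 to 28.2 in shChrebp, where Cd68 went from 19.9 to 9.29 FPKM while Adgre1, Csf1r, C1qa and 6 more of the 12 stayed under 1 FPKM. The other markers above 1 FPKM overlapped between groups and were not called: Cd14 was at 13.8 and 14.8 FPKM and Lyz2 at 2.18 and 2.04 FPKM. Summed endothelial markers, all 7 under 1 FPKM, were at 0.795 to 1.27 and 0.445 to 0.727. Of 5 fibroblast markers tested 2 fell (40%), Dcn and Pdgfra, beside 19.7% of all genes tested. The list's sum was 154.5 to 161.5 FPKM in shCtrl and 152.2 to 158.2 in shChrebp. Most of each sum was Pdpn, which was at 127.5 and 133.3 FPKM and was not called. The part of these cells in the results on the 44 genes was not tested.

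Among the regulators, Nfe2l2 stood at 144, 147 and 148 CPM in the shCtrl libraries and at 95.9, 98.6 and 92.2 CPM in the shChrebp libraries. All shChrebp values were below all shCtrl values, and the difference was −0.61 ± 0.04 on the log2 scale (SE, edgeR adjusted p = 9.16e-14). Its repressor Keap1, which carries NRF2 to degradation, was at 53.6, 55.2 and 57.7 CPM in shCtrl and 51.3, 58.4 and 49.8 CPM in shChrebp, so the groups overlapped (log2 fold change −0.06 ± 0.06). Mafg, a small MAF partner of NRF2, was at 106, 117 and 108 and 114, 116 and 119.9 CPM, and Bach1, the competing repressor, at 36.7, 36.3 and 35.01 and 35.9, 34.7 and 36.6 CPM. Both overlapped between groups, with log2 fold changes of 0.08 ± 0.04 and −0.01 ± 0.06. In FPKM, the ratio of Nfe2l2 to Keap1 was 3.49 ± 0.117 in shCtrl and 2.31 ± 0.156 in shChrebp (SD, n = 3), given without a test.

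Glutathione supply begins with cystine uptake by Slc7a11, a subunit of the cystine-glutamate antiporter, which went from 50.9, 44.2 and 47.5 CPM in shCtrl to 38.2, 38.6 and 42.3 CPM in shChrebp. Gclc, the catalytic subunit of the rate-limiting glutamate-cysteine ligase, was at 69.3, 79.2 and 74.1 CPM and then 58.8, 58.8 and 60.1 CPM. Both fell without overlap, with log2 fold changes of −0.26 ± 0.06 and −0.33 ± 0.05 (edgeR adjusted p = 0.0009 and 4.56e-06). The ligase's modifier subunit Gclm was at 99.6, 97.6 and 91.3 CPM in shCtrl and 88.2, 84.97 and 89.6 CPM in shChrebp, a smaller fall, at −0.14 ± 0.04 on the log2 scale (edgeR adjusted p = 0.015), with the highest shChrebp library just under the lowest shCtrl library. On the deposited FPKM scale Gclm was 58.5 ± 2.83 and 57.7 ± 1.63, a log2 difference of −0.02 that was not called (limma adjusted p = 0.788). In FPKM, the ratio of Gclc to Gclm was 0.371 ± 0.03798 in shCtrl and 0.3004 ± 0.00443 in shChrebp (SD, n = 3), without a test.

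Glrx encodes glutaredoxin, which removes glutathione from protein thiols. It was at 13.2, 12.6 and 11.04 CPM in shCtrl and 7.33, 7.48 and 10.1 CPM in shChrebp, lower, at −0.57 ± 0.12 on the log2 scale (edgeR adjusted p = 0.000401), with shChrebp 3 nearest to the controls. Ggct, which breaks down gamma-glutamyl dipeptides, was at 8.11, 7.16 and 7.17 CPM and 6.101, 4.98 and 5.96 CPM, also without overlap and at −0.40 ± 0.14 on the log2 scale (adjusted p = 0.0205 by edgeR). In FPKM its groups stood at 3.803 ± 0.822 and 3.36 ± 1.22 (SD, n = 3). Chac2, an enzyme that degrades glutathione itself, moved the other way, from 9.75, 10.05 and 12.1 CPM in shCtrl to 15.6, 14.2 and 14.02 CPM in shChrebp. All its shChrebp values were above all shCtrl values, by 0.45 ± 0.10 on the log2 scale (edgeR adjusted p = 0.000822). Gss, the synthetase of the last step, and Gsr, the reductase that regenerates glutathione, were not called, at 0.11 ± 0.10 and −0.01 ± 0.04.

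In the thioredoxin system, Txnrd1, the reductase that recharges thioredoxin, went from 262, 272 and 268 CPM in shCtrl to 241, 235 and 245 CPM in shChrebp. Srxn1, which repairs overoxidized peroxiredoxins, went from 119, 113 and 114 to 103, 106 and 102 CPM. Neither gene's groups overlapped, and both falls were small, −0.15 ± 0.03 and −0.16 ± 0.04 on the log2 scale (edgeR adjusted p = 0.000391 and 0.0025). Thioredoxin itself, Txn1, was at 299.7, 280.1 and 281 and 297, 279 and 266 CPM, with overlapping groups and a log2 fold change of −0.03 ± 0.04.

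Peroxiredoxins are thiol peroxidases that remove hydrogen peroxide, and 4 of 6 fell (66.7%), beside 19.7% of all genes tested. The calls of Prdx2 and Prdx5 among these did not hold in all settings. Prdx6, the member that draws on glutathione, changed most, from 135, 131 and 136 CPM in shCtrl to 89.3, 90.8 and 85.8 CPM in shChrebp, which is −0.60 ± 0.04 on the log2 scale (edgeR adjusted p = 2.93e-13). Cytosolic Prdx1 was at 780.2, 735 and 736 CPM and 677, 678 and 642 CPM. It fell in every shChrebp library below every shCtrl library, by only −0.17 ± 0.03 on the log2 scale (edgeR adjusted p = 5.57e-05). Prdx2, another cytosolic member, went from 200.1, 185 and 189 to 181, 183 and 158 CPM (−0.14 ± 0.05), where shChrebp 3 was low and the other 2 lay just under the controls. Prdx5 was called at −0.19 ± 0.07 although its groups overlapped, with 43.1, 37.5 and 35.3 CPM in shCtrl and 36.2, 34.4 and 30.6 CPM in shChrebp. Mitochondrial Prdx3 and endoplasmic Prdx4 were not called, at −0.07 ± 0.04 and 0.02 ± 0.05.

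Superoxide dismutases, which turn superoxide into hydrogen peroxide, were lower in all 3 compartments. Sod3, the secreted enzyme, was at 57.8, 56.6 and 53.2 CPM in shCtrl and at 28.6, 32.5 and 28.4 CPM in shChrebp. The cytosolic Sod1 went from 184, 170.5 and 172 to 163, 155 and 146 CPM, and the mitochondrial Sod2 from 85.6, 88.3 and 84.8 to 76.6, 71.8 and 71.9 CPM. No groups overlapped, and the log2 fold changes were −0.90 ± 0.06, −0.18 ± 0.04 and −0.23 ± 0.04 (edgeR adjusted p = 4.5e-13, 0.000716 and 0.000102). The enzymes that clear hydrogen and lipid peroxides were not called: catalase (Cat) was at −0.04 ± 0.04, the cytosolic peroxidase Gpx1 at 0.08 ± 0.04, the lipid peroxidase Gpx4 at 0.07 ± 0.04 and the secreted peroxidase Gpx3, with 53 to 102 counts per library, at −0.54 ± 0.25.

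Glutathione transferases attach glutathione to reactive compounds. Gstp1 was at 198, 190.4 and 181 CPM in shCtrl and 139, 127 and 119.5 CPM in shChrebp, Gstm1 at 60.8, 62.97 and 60.97 and 43.7, 41.6 and 40.6 CPM, and Gstm5 at 32.7, 32.1 and 26.1 and 24.3, 22.3 and 25.1 CPM. The membrane-bound Mgst1 went from 16.1, 14.6 and 16.5 to 10.5, 11.01 and 11.6 CPM. In these 4 genes every shChrebp library was below every shCtrl library, with log2 fold changes of −0.56 ± 0.05, −0.55 ± 0.05, −0.34 ± 0.08 and −0.51 ± 0.09 (edgeR adjusted p = 7.06e-08, 5.67e-10, 0.0013 and 6.92e-05). Gsta4, which prefers the lipid aldehyde 4-hydroxynonenal, and Gstt1 had the lowest fold changes of the 42, but few counts. The shCtrl libraries had 63, 42 and 42 counts of Gsta4 and the shChrebp libraries 13, 35 and 21, or 3.99, 2.53 and 2.198 and 0.728, 1.45 and 1.303 CPM. For Gstt1 the counts were 19, 28 and 30, then 6, 13 and 11, or 1.203, 1.69 and 1.57 and 0.336, 0.5399 and 0.683 CPM. Their log2 fold changes were −1.29 ± 0.29 and −1.52 ± 0.35, with standard errors several times those of the abundant members (edgeR adjusted p = 0.000692 and 0.000977). Gsto1 and Mgst3 were not called, at 0.07 ± 0.04 and −0.12 ± 0.06. Transferase families share sequence, so the split of reads among Gstp, Gstm and Gsta copies is uncertain, and Gstp1 is among 4 of the 44 genes with fractional counts, with Slc7a11, Prdx5 and Sod2.

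Nqo1, which reduces quinones and is a standard readout of NRF2, was at 86.1, 87.3 and 84.2 CPM in shCtrl and 46.3, 49.4 and 39.2 CPM in shChrebp. Ephx1, the microsomal epoxide hydrolase, was at 57.1, 55.99 and 54.2 and 42.4, 42.1 and 39.5 CPM. Abcc1, an exporter of glutathione conjugates, went from 191, 204 and 195 to 157, 161 and 153 CPM. Each gene's groups were apart, with log2 fold changes of −0.92 ± 0.06, −0.43 ± 0.05 and −0.32 ± 0.04 (edgeR adjusted p = 1.33e-10, 1.66e-07 and 2.34e-08). Cbr3, a carbonyl reductase, was lower by a less certain margin, at 8.61, 8.13 and 7.43 CPM and 5.54, 6.77 and 6.58 CPM (−0.35 ± 0.13, edgeR adjusted p = 0.0353). Ugdh, which makes UDP-glucuronic acid for conjugation and for matrix glycans, rose from 379.9, 381 and 392 to 464, 439.9 and 458 CPM, or 0.24 ± 0.03 on the log2 scale (edgeR adjusted p = 3.25e-07) and with no overlap. Osgin1, an oxidative stress-induced growth inhibitor, was at −0.36 ± 0.16 and not called.

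**Figure D2:**
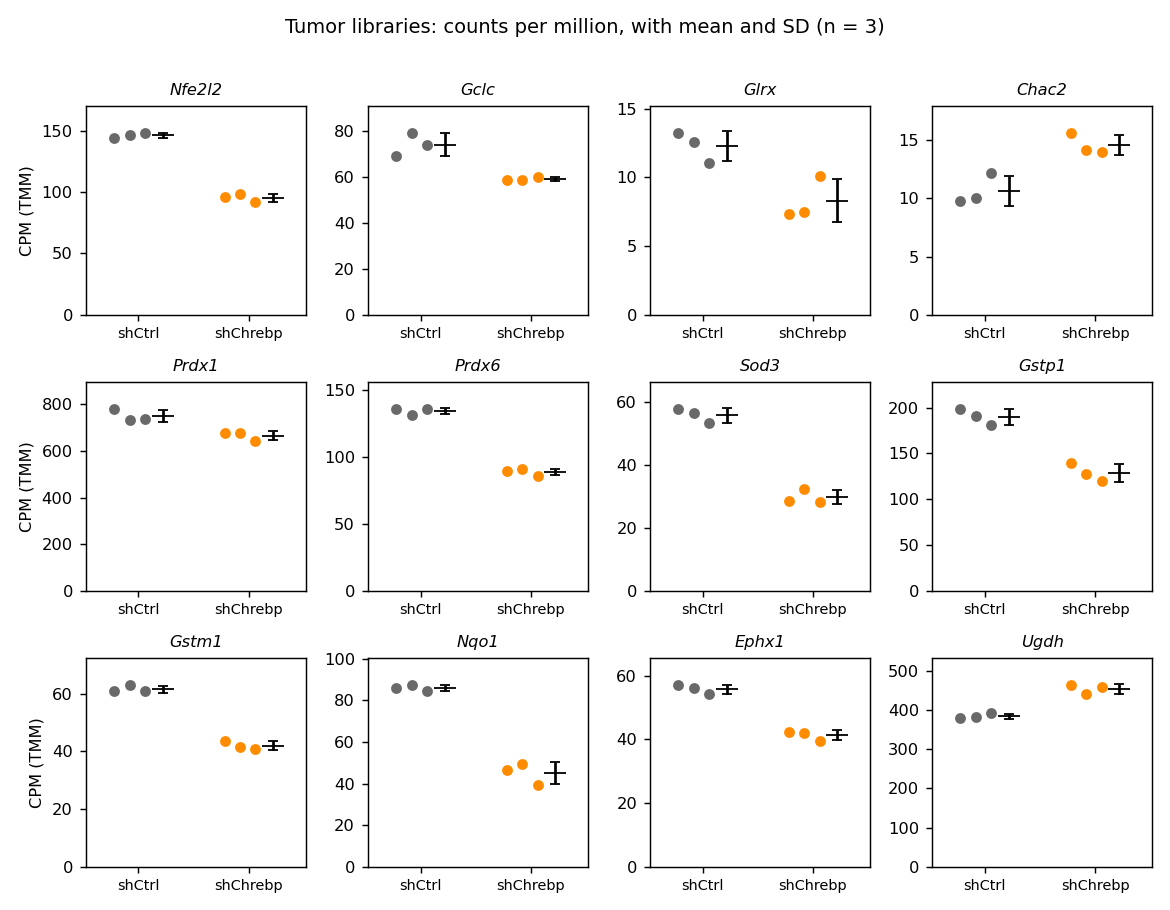
TMM-scaled CPM (y axis, from 0) of 12 genes in each of the 3 shCtrl and 3 shChrebp tumor libraries (points), with mean and SD beside them. The groups are apart in every panel, with shChrebp above shCtrl in Chac2 and Ugdh and below it in the other 10.

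Of the 27 tumor calls, 21 held in all 12 other settings tried. Leaving out single libraries ended 5 of them. Gclm was lost without shCtrl 1, shCtrl 2 or shChrebp 2 (edgeR adjusted p = 0.0776, 0.0691 and 0.092, in a range from 0.00661 to 0.788 over all settings), and Ggct without shCtrl 1 or shChrebp 2 (0.0715 and 0.118, range 0.0192 to 0.598). Prdx2 was lost without shCtrl 1, shCtrl 3 or shChrebp 3 (0.15, 0.09 and 0.189, range 0.00532 to 0.189), with a log2 fold change of −0.07 without shChrebp 3. Prdx5 was lost without shCtrl 1, shCtrl 2, shChrebp 2 or shChrebp 3 (0.297, 0.0839, 0.107 and 0.214, range 0.0123 to 0.297), with −0.10 without shCtrl 1. Cbr3 was lost without shCtrl 1, shCtrl 2, shChrebp 1 or shChrebp 3 (0.112, 0.0836, 0.161 and 0.0504, range 0.0278 to 0.186). Calls were gained for Gpx4 and Gsto1 without shCtrl 1 (edgeR adjusted p = 0.0128 and 0.0216), for Gsto1 also without shChrebp 3 (0.023), for Mafg without shCtrl 2 (0.0368), Gpx3 without shCtrl 3 (0.036) and Osgin1 without shChrebp 2 (0.0492).

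In BMDM kept with choline, 5 of 8 glutathione genes, 3 of 3 thioredoxin system genes and 3 of 6 peroxiredoxins were lower than with PBS. By limma on log2(FPKM + 0.1), 18 of 36 genes tested fell (50%) and 6 rose (16.7%) at an adjusted p under 0.05. Over all 10028 genes tested 29.2% were called lower and 28.2% higher. The median log2 fold change of the 36 was −0.20, beside 0.00 over all genes, and 25 of the 36 were below 0. Gstt1, Gclm, Ephx1, Keap1 and Gsr fell by more than 0.5 on the log2 scale, and Gsto1, Chac2 and Sod2 rose by more than 0.4. Gpx3, Gsta3, Gsta4, Gstm1, Mgst1 and Nqo1 did not reach the filter of 1 FPKM in 3 libraries.

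Markers moved here too. Macrophage markers summed to between 3731 and 3890 FPKM with PBS and to between 4812 and 5252 with choline. Most of each sum was Lyz2, which went from 2587 to 3791 FPKM, while Fcgr1 went from 8.07 to 26.9 FPKM. Of 7 tested, 3 rose (42.9%) and 1 fell (14.3%), Cd14, beside 28.2% higher and 29.2% lower of all genes tested. Cd68 (345 and 344 FPKM), Itgam (125 and 124) and Csf1r (203 and 191) were not called. Mertk and Mrc1, which were not tested, were near 0 in both groups. Summed neutrophil markers were at 17.5 to 21.7 FPKM and 11.5 to 14.8, almost all of it S100a8, which fell, while Csf3r, Mpo, Elane, Cxcr2 and S100a9 were under 1 FPKM. Their part in the results below was not tested.

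Keap1, the NRF2 repressor, was at 8.23, 8.84 and 8.59 FPKM in PBS libraries 1, a and b and at 5.46, 5.43 and 5.25 FPKM in choline libraries 1 to 3. All choline values were below all PBS values, by a log2 fold change of −0.66 ± 0.06 (SE, limma adjusted p = 8.66e-06). Nfe2l2 was at 61.0, 59.1 and 64.01 FPKM with PBS and 64.99, 66.8 and 68.6 FPKM with choline, just apart, a rise of 0.12 ± 0.04 on the log2 scale (limma adjusted p = 0.0324). The FPKM ratio of Nfe2l2 to Keap1 was 7.18 ± 0.426 with PBS and 12.4 ± 0.599 with choline (SD, n = 3), without a test. Mafg overlapped at 24.3, 24.7 and 24.7 and 24.7, 25.03 and 24.8 FPKM (0.01 ± 0.04). Bach1 was at 8.68, 8.46 and 8.62 and 7.59, 8.003 and 8.22 FPKM, apart but not called (−0.11 ± 0.05, limma adjusted p = 0.0963).

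The ligase subunits fell by different amounts. Gclm was at 29.8, 29.8 and 28.4 FPKM with PBS and 16.2, 14.5 and 15.1 FPKM with choline, and Gclc at 28.04, 27.8 and 27.5 and 21.4, 20.5 and 22.4 FPKM. Neither overlapped, and the log2 fold changes were −0.94 ± 0.05 and −0.37 ± 0.05 (limma adjusted p = 6.9e-07 and 9.33e-05). The FPKM ratio of Gclc to Gclm was 0.947 ± 0.0188 with PBS and 1.41 ± 0.08202 with choline (SD, n = 3), given without a test. Gsr, the glutathione reductase, went from 44.9, 48.02 and 45.4 to 31.3, 29.6 and 29.7 FPKM, and the antiporter subunit Slc7a11 from 72.1, 68.9 and 81.2 to 59.6, 57.6 and 62.3 FPKM. Glrx, glutaredoxin, went from 172, 173 and 176 to 133, 124 and 116 FPKM. In these 3 genes every choline value was below every PBS value, with log2 fold changes of −0.61 ± 0.04, −0.30 ± 0.06 and −0.48 ± 0.05 (limma adjusted p = 3.25e-06, 0.00197 and 2.42e-05).

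Chac2 and Ggct, which act in glutathione breakdown and the handling of its products, rose. Chac2 was at 6.84, 6.25 and 7.18 FPKM with PBS and 9.14, 9.44 and 10.02 FPKM with choline, and Ggct at 3.79, 3.91 and 4.54 and 5.61, 4.904 and 4.97 FPKM. Their groups were apart, with log2 fold changes of 0.49 ± 0.07 and 0.33 ± 0.09 (limma adjusted p = 0.000166 and 0.00786). Chac1, the stress-induced relative of Chac2, was not called, at 0.10 ± 0.05 (limma adjusted p = 0.0928). The synthetase Gss was at 0.12 ± 0.08 and not called, its highest value in choline 1.

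All 3 thioredoxin system genes fell. Txn1 was at 340.4, 351 and 329.5 FPKM with PBS and 261, 266 and 254 FPKM with choline, Txnrd1 at 97.3, 100.3 and 98.03 and 82.9, 80.8 and 78.7 FPKM, and Srxn1 at 26.96, 27.96 and 26.6 and 21.8, 20.5 and 19.2 FPKM. The groups were apart in each, and the log2 fold changes were −0.39 ± 0.04, −0.29 ± 0.04 and −0.41 ± 0.05 (limma adjusted p = 1.54e-05, 0.000119 and 0.000134).

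Among the peroxiredoxins, Prdx1, the most abundant of the 42 genes in FPKM, went from 793, 809.6 and 782 FPKM with PBS to 598, 569 and 553 FPKM with choline. Prdx2 went from 73.99, 77.3 and 70.5 to 62.1, 58.9 and 57.7 FPKM and Prdx4 from 31.1, 32.8 and 31.1 to 27.4, 26.8 and 25.1 FPKM. These 3 were lower in every choline library than in any PBS library, by −0.47 ± 0.04, −0.31 ± 0.05 and −0.26 ± 0.05 on the log2 scale (limma adjusted p = 5.13e-06, 0.000324 and 0.00116). Prdx5, found in mitochondria, peroxisomes and cytosol, rose a little, from 121, 121 and 123 to 137, 132 and 127 FPKM (0.11 ± 0.04, limma adjusted p = 0.0252). Prdx3 and Prdx6 were not called, at −0.04 ± 0.05 and −0.10 ± 0.04.

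The mitochondrial and cytosolic dismutases moved apart. Sod2 rose from 136, 141 and 132 FPKM with PBS to 189.9, 183 and 179 FPKM with choline, while Sod1 went from 328, 350.2 and 317 to 311, 300.2 and 294 FPKM. Their log2 fold changes were 0.43 ± 0.04 and −0.14 ± 0.04 (limma adjusted p = 1.38e-05 and 0.0204), and the lowest Sod1 value with PBS, in library b, was close to the highest with choline. The FPKM ratio of Sod2 to Sod1 was 0.411 ± 0.00766 with PBS and 0.609 ± 0.00169 with choline (SD, n = 3), without a test. Cat, catalase, fell from 32.7, 34.1 and 36.8 to 24.8, 25.03 and 23.4 FPKM, apart in all libraries and with a log2 fold change of −0.50 ± 0.05 (limma adjusted p = 3.84e-05). Gpx1 and Gpx4 were not called, at −0.04 ± 0.05 and 0.11 ± 0.04, though the groups of Gpx4 did not overlap.

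Gsto1, an omega-class transferase that also reduces dehydroascorbate, had the greatest rise of the 36 genes, from 33.4, 35.1 and 32.8 FPKM with PBS to 54.2, 55.03 and 54.2 FPKM with choline (0.69 ± 0.04, limma adjusted p = 9.46e-07). Gstt1 was at 1.86, 2.03 and 1.96 FPKM and 0.751, 1.02 and 0.891 FPKM, from 72 to 78 reads per library with PBS and 29 to 39 with choline, and Ephx1 at 2.12, 1.81 and 1.97 and 0.843, 1.09 and 1.05 FPKM. Both were apart in all libraries, with log2 fold changes of −1.07 ± 0.12 and −0.92 ± 0.12 (limma adjusted p = 5.7e-05 and 0.000145), and of −0.65 and −0.57 with a pseudocount of 1 FPKM. Gstp1 and Mgst3 were not called, at −0.32 ± 0.16 and 0.12 ± 0.08. Ugdh fell from 31.1, 29.4 and 31.98 to 23.5, 24.7 and 23.8 FPKM without overlap (−0.36 ± 0.05, limma adjusted p = 0.000121). Cbr3 went from 2.75, 2.99 and 3.54 to 2.66, 2.36 and 1.61 FPKM, where choline 1 lay just under the lowest PBS library (−0.49 ± 0.17, limma adjusted p = 0.0344). Cbr1, Abcc1 and Osgin1 were not called, at −0.10 ± 0.06, −0.10 ± 0.06 and 0.06 ± 0.16.

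**Figure D3:**
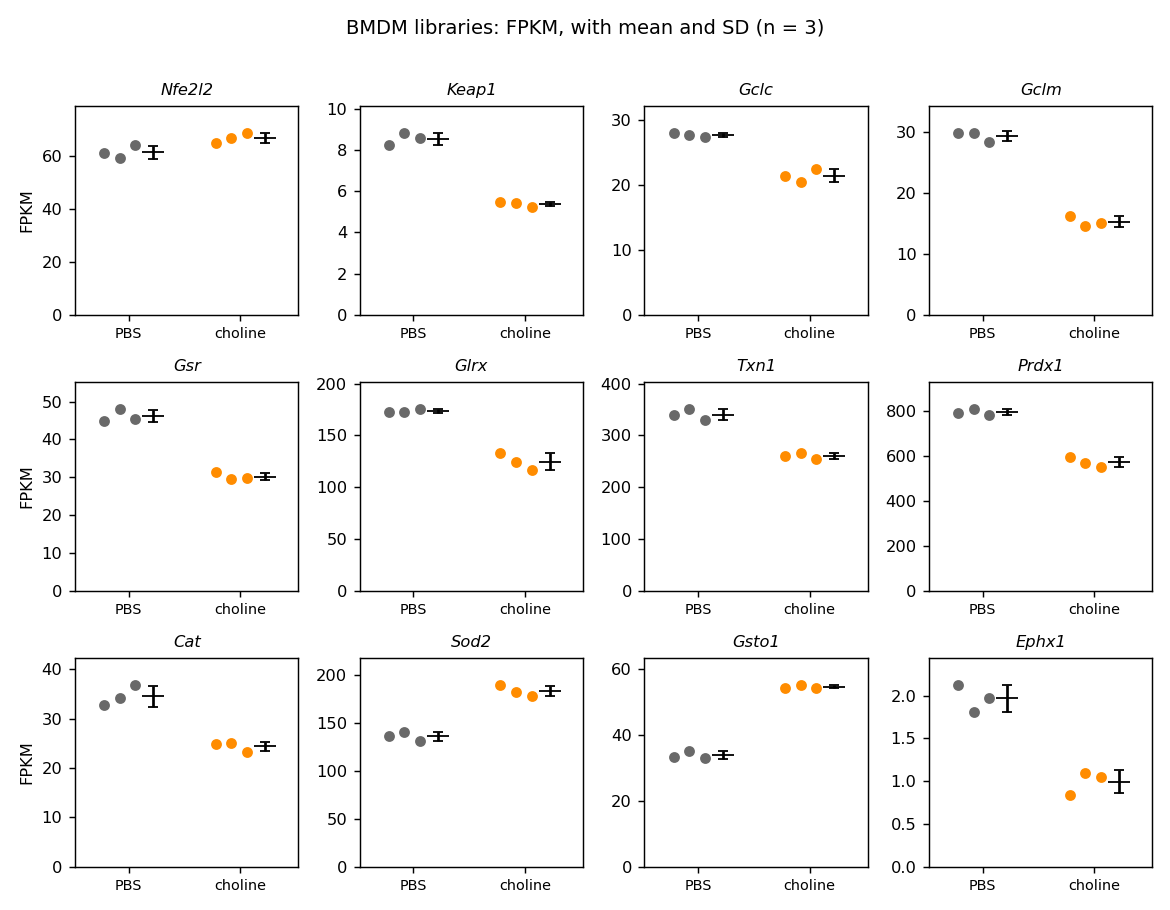
FPKM (y axis, from 0) of 12 genes in each of the 3 PBS and 3 choline BMDM libraries (points), with mean and SD beside them. The groups are apart in every panel, with choline above PBS in Nfe2l2, Sod2 and Gsto1 and below it in the other 9.

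Of the 24 BMDM calls, 20 held in all 11 other settings. Nfe2l2 was lost without PBS 1, PBS a, choline 2 or choline 3 (limma adjusted p = 0.0956, 0.103, 0.0895 and 0.103, in a range from 0.0112 to 0.103 over all settings). Prdx5 was lost without PBS 1, PBS a, choline 1 or choline 2 (0.0863, 0.0572, 0.0857 and 0.0785, range 0.0144 to 0.0863). Sod1 was lost without PBS 1, PBS a, choline 2 or choline 3 (0.0501, 0.066, 0.0678 and 0.0685, range 0.00568 to 0.0685). Cbr3 was lost without PBS a, PBS b, choline 2 or choline 3 (0.0578, 0.0908, 0.0509 and 0.0688, range 0.0113 to 0.102), with a log2 fold change of −0.29 without choline 3. Testing without a filter also ended Nfe2l2, Sod1 and Cbr3 (0.066, 0.056 and 0.102). Calls were gained for Prdx6 and Abcc1 without choline 1 (limma adjusted p = 0.0394 and 0.0178), for Gstp1 without PBS 1 (0.00994), Gpx4 without PBS a (0.023) and Cbr1 without PBS b (0.0158).

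The 2 comparisons share no library, and 35 genes were tested in both. Of these, 12 were lower in both, which is 63.2% of the 19 lower in tumors and 66.7% of the 18 lower in BMDM. Of the 35 genes, 54.3% were lower in tumors and 51.4% in BMDM. Over all 8916 genes tested in both, 552 were lower in both, which is 34.9% of the 1580 lower in tumors and 20.5% of the 2693 lower in BMDM. The 12 are Slc7a11, Gclc, Gclm and Glrx of the glutathione genes, Txnrd1 and Srxn1, Prdx1 and Prdx2, Sod1, Gstt1, Cbr3 and Ephx1. Chac2 rose in both, by 0.45 ± 0.10 in tumors and 0.49 ± 0.07 in BMDM on the log2 scale. In 5 genes the calls were opposite. Nfe2l2, Ggct, Prdx5 and Sod2 fell in shChrebp tumors and rose with choline, and Ugdh rose in the tumors and fell with choline. Only Sod2 and Ugdh kept both calls in all settings. Prdx5 was lost in 8 of 12 tumor settings and Ggct in 4, and in BMDM Prdx5 in 4 of 11 and Nfe2l2 in 5. Of the 12 genes lower in both, Slc7a11, Gclm and Prdx2 were lost in some tumor settings, Sod1 in some BMDM settings and Cbr3 in some of each. Keap1, Gsr, Txn1, Prdx4 and Cat fell with choline and were not called in tumors, where their log2 fold changes were −0.06 ± 0.06, −0.01 ± 0.04, −0.03 ± 0.04, 0.02 ± 0.05 and −0.04 ± 0.04. Whether a gene's change differs between tumors and BMDM was not tested, because the tables were made separately and in different units.

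**Figure D4:**
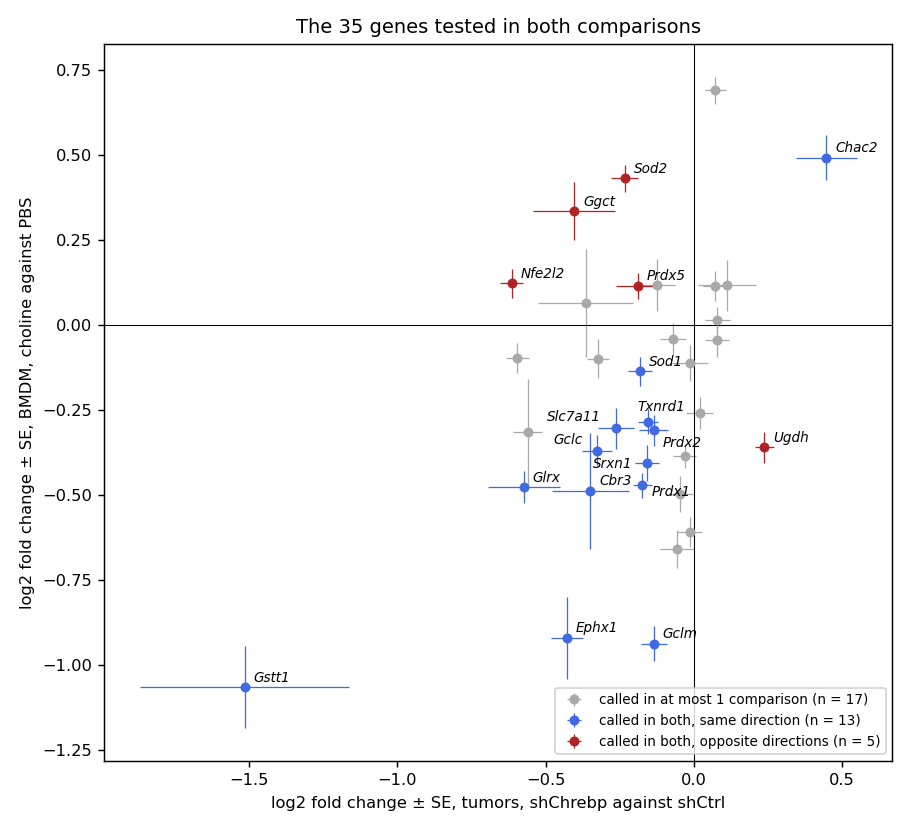
Log2 fold change in tumors (x axis, shChrebp against shCtrl) and in BMDM (y axis, choline against PBS) of the 35 genes tested in both, with standard errors. Blue points were called in both in the same direction (12 lower and 1 higher), red points in opposite directions (5), and the 17 grey points in at most 1 comparison.

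Per length, in FPKM, the 44 genes differed widely in level within each table. In shCtrl tumors Prdx1 was highest at 640.2 ± 44.7 FPKM, followed by Sod1 at 273 ± 11.7 and Txn1 at 272 ± 10.3, 2 levels that do not differ beyond their SD (n = 3). With PBS, Prdx1 was at 795 ± 13.97 FPKM, Txn1 at 340.3 ± 10.8 and Sod1 at 332 ± 16.8, the last 2 again within their SD. Nqo1, Gstm1 and Mgst1 stood at 55.2 ± 1.09, 47.8 ± 1.01 and 16.6 ± 1.79 FPKM in shCtrl tumors and at 0.183 ± 0.0359, 0.248 ± 0.0634 and 0.00676 ± 0.0117 FPKM in BMDM with PBS. Glrx was at 9.11 ± 0.839 FPKM in the tumors and 174 ± 1.78 in BMDM, and Sod2 at 14.9 ± 0.345 and 136 ± 4.56. These levels were not tested against each other, since the tables were normalized separately.

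Other genes of the pathway were read from lists beside the 44. Their shares stand against the 18.6% higher and 19.7% lower of all genes tested in tumors, and the 28.2% higher and 29.2% lower in BMDM. Of 28 further genes induced by NRF2 or tied to its redox work that were tested in tumors, 15 fell (53.6%) and 1 rose (3.57%), with a median log2 fold change of −0.13. Aldh3a1, an aldehyde dehydrogenase, was at −1.91 ± 0.04 on the log2 scale, Txnip, which binds thioredoxin and is a known target of Chrebp, at −1.39 ± 0.08, and the ferritin heavy chain Fth1 at −0.39 ± 0.03 (edgeR adjusted p = 4.68e-25, 2.85e-15 and 6.17e-12). In BMDM 9 of 24 fell (37.5%) and 7 rose (29.2%), shares near those of all genes, with a median of −0.06. There Txnip rose by 1.07 ± 0.04, Pgd, an NADPH-forming enzyme of the pentose phosphate pathway, was at −1.01 ± 0.04, and heme oxygenase, Hmox1, at −1.37 ± 0.06 (limma adjusted p = 6.69e-08, 9.47e-08 and 1.81e-07). In FPKM, Hmox1 went from 300.5 ± 19.6 with PBS to 116 ± 7.42 with choline (SD, n = 3).

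Of 11 further regulators tested in tumors 1 fell (9.09%) and 1 rose, both under the share of all genes. Nfe2l1, a relative of NRF2 that controls proteasome genes, was at −0.38 ± 0.03. Cul3, the scaffold of the ubiquitin ligase that uses KEAP1, rose by 0.10 ± 0.03 (edgeR adjusted p = 2.95e-11 and 0.0126). In BMDM 3 of 9 rose (33.3%, near the share of all genes) and 1 fell (11.1%). Gsk3b, a kinase that marks NRF2 for another ligase, was at 0.89 ± 0.04, Nfe2l1 at 0.50 ± 0.05, and Rbx1, the RING subunit of the cullin ligase, at −0.51 ± 0.04 (limma adjusted p = 3.56e-07, 1.54e-05 and 6.04e-06).

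Among 15 further glutathione genes tested in tumors 6 rose (40%) and 2 fell (13.3%), with a median of 0.08, unlike the median of −0.20 of the 8 listed glutathione genes. Idh2, the mitochondrial NADPH-forming isocitrate dehydrogenase, was at −0.57 ± 0.04, its cytosolic relative Idh1 at 0.24 ± 0.04, and the dipeptidase Cndp2, which splits cysteinylglycine, at 0.47 ± 0.04 (edgeR adjusted p = 1.12e-13, 1.97e-05 and 1.63e-10). In BMDM 6 of 11 fell (54.5%) and 3 rose (27.3%), with Cndp2 at 0.42 ± 0.04, Idh1 at −0.36 ± 0.04 and Idh2 at −0.28 ± 0.05 (limma adjusted p = 1.92e-05, 5.69e-05 and 0.000948). Of 8 further transferases tested in tumors 5 fell (62.5%) and none rose, with Gstz1 at −0.43 ± 0.09, Gstm2 at −0.24 ± 0.05 and the scarce Gstm7 at −1.56 ± 0.37 (edgeR adjusted p = 0.000242, 0.000559 and 0.00103). In BMDM Gstcd, at 0.20 ± 0.05, was the 1 call among 5 (20%, limma adjusted p = 0.00859).

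Further thioredoxin-like, methionine sulfoxide reductase, sestrin and related genes were mixed. In tumors 4 of 18 were higher (22.2%, near the share of all genes) and 7 lower (38.9%), and in BMDM 3 of 13 were higher (23.1%) and 5 lower (38.5%). Park7, which protects against oxidative stress, and the disulfide isomerase relative Txndc5 fell in both, with log2 fold changes of −0.21 ± 0.05 and −0.14 ± 0.03 in tumors and of −0.35 ± 0.04 and −0.36 ± 0.04 in BMDM. Selenow, a small selenoprotein, rose in both, by 0.45 ± 0.08 in tumors and 0.58 ± 0.08 in BMDM. Sesn1, a stress-induced sestrin, fell in both, at −0.25 ± 0.09 in tumors and −0.74 ± 0.07 in BMDM. NADPH oxidase is the phagocyte's source of superoxide. Of 6 genes from a list of NADPH oxidase genes tested in BMDM, 3 rose and 3 fell (50% each), with Nox1 among those that fell. The membrane subunit genes Cyba and Cybb were at 0.27 ± 0.03 and 0.25 ± 0.04, and the cytosolic subunit gene Ncf1 was at −0.37 ± 0.05 (limma adjusted p = 0.000115, 0.000652 and 0.000121). In tumors 11 of the 12 genes of this list were under 1 FPKM.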

How the data were processed

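Total RNA taken up in TRIzol was sequenced from a VAHTS Universal V6 library kit, per the labels' protocols. The submitters' processing notes name build GRCm39. Alignment, counting and strand settings were not given in the sources used here. Per the file headers, the tumor file holds estimated counts made by the authors for each Ensembl gene, beside FPKM, and these counts were rounded before the test. The BMDM file holds the authors' FPKM for each gene symbol, and its 2 rows without a name were left out. With library sizes and whole gene lengths fitted to the same values, 19494 of 19496 rows came out as whole reads within 0.01 reads. Of 500 shuffled rows 0 did, but these were drawn only from rows well above 0 in every library. The shares are thus not of like rows. Those reads give the BMDM depth and an alternative count test by edgeR, which called 3207 genes higher and 3219 lower.

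Samples were grouped by title. Because 2 PBS columns of BMDM share a heading, they are named PBS a and b and carry no replicate number. Tumor genes were tested with edgeR 4.0.16 (quasi-likelihood F test, TMM, filterByExpr, robust) in R 4.3.3. BMDM genes that reached 1 FPKM in at least 3 libraries were tested with limma 3.58.1 (trend, robust) on log2(FPKM + 0.1), a scale that understates the change of low genes. All tests were two-sided, and p-values were adjusted by Benjamini-Hochberg over all genes tested, with a threshold of 0.05. Other normalizations, filters, pseudocounts, DESeq2 1.42.0 (for tumors), limma on tumor FPKM, a replicate block and leaving out each library were tried. Replicates differed by more than counting noise (chi-square per degree of freedom 2.00 to 13.6), so none were merged.

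Members, gene lists and tests were chosen with earlier results of these data known. Values in every library are given for called genes whose groups did not overlap and for Nfe2l2, Keap1, Bach1, Mafg, Gclc and Gclm. They are also given for Prdx5, added after its values were seen, and for Txn1 in tumors, which was not called. Of each further pathway list, up to 3 called genes with the smallest adjusted p are named. A gene of the NADPH oxidase list is not reported here and is left out of its counts. Promoter sequences are RefSeq's for GRCm38.p6.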

Additional observations from a re-analysis of the deposited data

How the results depend on the processing

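Of the 27 tumor calls among the listed genes 21 held in 12 other settings, and of the 24 BMDM calls 20 held in 11. No called gene changed direction. Over all genes, limma on tumor FPKM called 1503 lower, beside 2316 by edgeR. That test also ended the call of Slc7a11 (adjusted p = 0.0654), Gclm, Ggct, Prdx2 and Prdx5, and the DESeq2 Wald test ended Gclm, Ggct, Prdx2, Prdx5 and Cbr3. Upper-quartile library sizes ended Prdx2 and Prdx5 (adjusted p = 0.0583 for both), and total counts as library sizes ended Prdx5 (0.0592). Testing without a filter ended Cbr3 in tumors (0.0501) and Nfe2l2, Sod1 and Cbr3 in BMDM (0.066, 0.056 and 0.102). With single tumor libraries left out, 2 to 4 listed genes were called higher. Uncalled genes near 0 changed sign. Without a filter Bach1 was at 0.007 and Gsr at 0.0058 in tumors. Over all other settings, tumor values ran from −0.0322 to 0.0118 for Bach1, −0.0452 to 0.032 for Gsr, −0.0653 to 0.0086 for Txn1 and −0.0257 to 0.0676 for Prdx4. In BMDM they ran from −0.0735 to 0.0061 for Prdx3 and −0.1247 to 0.2142 for Osgin1. Where the construction of a setting does not show it, the cause was not tested. Low counts limit Gstt1, Gsta4, Gpx3 and Osgin1.

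With a replicate block, 2264 tumor genes were called higher and 2376 lower, and 26 listed genes were lower and 2 higher. The numbers were not taken to pair the samples, a question that 3 libraries per group cannot settle. Deviations of libraries with the same number correlated at 0.0579, −0.0641 and −0.0254 across genes, and not every library correlated best with its own number. No paired analysis was possible for BMDM because the PBS columns carry only 1 usable number.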
